A study of Mus musculus with 4 samples.

Results

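Remote intergenic RBPJ regions are stretches bound in both RBPJ libraries of alveolar macrophages (AMs) that lie far from every protein-coding gene start. Overlapping peaks of the 2 RBPJ peak lists were merged, and merged regions with at least 1 peak of each list formed a consensus of 25454 regions. A region was called remote when its midpoint lay over 100 kb from every protein-coding transcription start site (TSS) and inside no protein-coding gene body. In all, 994 regions met this rule, which was 3.91% of the consensus (Wilson 95% interval 3.67 to 4.15). The 2 RBPJ libraries (replicates 1 and 2) came from AMs that were lavaged out of the lungs of WT C57BL/6J animals aged 9 wk and sorted by flow cytometry. Chromatin was immunoprecipitated with an anti-RBPJ antibody and tagmented on the beads. The 2 input libraries received no antibody and served the authors' peak calling only. The labels do not say whether the libraries came from separate animals, there was no second genotype or treatment, and peak lists carry no expression values with which to check the cell type.

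RBPJ is the DNA-binding partner through which Notch receptors switch on their target genes, and without Notch it can recruit corepressors. Macrophage enhancers are typically opened by PU.1 together with CEBP, AP-1 and RUNX factors, and many lie far from the gene they serve, in sequence that may also be transcribed into long noncoding RNA (lncRNA). The nearest gene of a remote region is named below by position only.

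The sequences under the summits are shown first, because the motifs they carry set these regions apart from the DNA beside them. The following 4 members were among the strongest that carried the PU.1 motif GAGGAAGT, and capitals mark it on either strand.
Klf6 (chr13:5511958-5512018, plus strand): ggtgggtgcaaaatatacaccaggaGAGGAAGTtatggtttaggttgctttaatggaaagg
Spdye4c (chr2:128429336-128429396, plus strand): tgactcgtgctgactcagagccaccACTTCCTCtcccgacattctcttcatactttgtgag
Prkcq (chr2:11332644-11332691, plus strand): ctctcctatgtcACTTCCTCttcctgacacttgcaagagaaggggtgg
Gm5426 (chr10:96274060-96274120, plus strand): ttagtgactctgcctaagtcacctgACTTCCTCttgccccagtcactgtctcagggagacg
Each line is named for the nearest protein-coding gene, with coordinates counted from 1 in GRCm38 (mm10).

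Strong members with matches to the CEBP motif TTGCNNAA, the AP-1 motif TGANTCA or the RUNX motif TGTGGTT are shown for 50 bp either side of the summit, with all of these matches in capitals. The Gm5426 member held 2 CEBP matches, the Tmem30b member a CEBP and a RUNX match, and the Zeb2 member an AP-1 and a CEBP match. The Trib1 member, the strongest of the 4, held none of the 18 motifs searched and is shown for contrast.
Gm5426 (chr10:96333014-96333114, plus strand): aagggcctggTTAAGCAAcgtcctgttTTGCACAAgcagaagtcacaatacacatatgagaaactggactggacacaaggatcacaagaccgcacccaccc
Tmem30b (chr12:73445712-73445812, plus strand): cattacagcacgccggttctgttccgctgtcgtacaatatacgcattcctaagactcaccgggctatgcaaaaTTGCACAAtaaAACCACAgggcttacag
Zeb2 (chr2:45276876-45276976, plus strand): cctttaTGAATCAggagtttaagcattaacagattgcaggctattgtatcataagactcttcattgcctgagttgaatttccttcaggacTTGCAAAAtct
Trib1 (chr15:59831175-59831275, plus strand): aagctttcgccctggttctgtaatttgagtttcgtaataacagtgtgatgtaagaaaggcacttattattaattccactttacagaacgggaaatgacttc

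RBPJ itself recognizes a longer site around the core TGGGAA, and 13 of the 994 members held a 9-base match to it within 100 bp of the summit. The 6 strongest of these by the lower fold of the 2 libraries are shown, with the match in capitals.
Btg1 (chr10:96466068-96466128, plus strand): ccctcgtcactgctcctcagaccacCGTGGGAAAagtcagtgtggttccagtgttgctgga
Atp10a (chr7:58399288-58399339, plus strand): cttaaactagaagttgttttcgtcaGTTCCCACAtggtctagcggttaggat
Stt3b (chr9:115492579-115492639, plus strand): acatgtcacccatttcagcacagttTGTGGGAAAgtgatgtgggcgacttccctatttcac
Hivep2 (chr10:14212069-14212129, plus strand): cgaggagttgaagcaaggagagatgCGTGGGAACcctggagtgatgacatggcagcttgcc
Snx5 (chr2:144165828-144165888, plus strand): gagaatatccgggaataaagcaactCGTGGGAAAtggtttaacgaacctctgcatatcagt
Cxcr4 (chr1:128713099-128713159, plus strand): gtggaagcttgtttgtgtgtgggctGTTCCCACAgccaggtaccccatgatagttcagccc
The Btg1 member was the strongest of those shown, with 12.2-fold enrichment in replicate 1 and 9.37-fold in replicate 2.

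The PU.1, CEBP, AP-1, RUNX and STAT motifs were more frequent at the summits of remote regions than in windows of the same length (201 bp) centered 1000 bp away. Of the members, 751 had a flank window free of peaks and assembly gaps, and 1 such flank was taken for each. Among these, the PU.1 motif was present at 12.0% of summits against 0.53% of flanks, a difference of 11.5 points (95% interval 9.17 to 13.99). The CEBP motif was present at 17.8% of summits and 7.46% of flanks, a difference of 10.4 points (7.12 to 13.7). For the AP-1 motif the difference was 6.13 points (3.02 to 9.26), and for the RUNX motif it was 5.59 points (3.30 to 8.001). In the single lists the PU.1 difference was smaller, at 4.33 points in replicate 1 and 2.02 points in replicate 2. So were those for CEBP (3.62 and 1.85 points) and RUNX (2.80 and 1.13 points), all with intervals above 0. The interval of the AP-1 difference included 0 in replicate 2 alone (1.08 points, -0.02 to 2.18) and where the summits of both libraries lay within 100 bp (3.92 points, -0.31 to 8.16). The STAT motif TTCNNNGAA differed by 3.06 points (0.20 to 5.95). For other motifs of macrophage factors the interval of the difference included 0, with 0.13 points for IRF (-1.71 to 1.98), 0.67 for NF-kB (-0.47 to 1.89), 0 for the MAF motif TGCTGAC (-1.803 to 1.803) and -0.27 for the MITF and TFE motif TCACGTGA (-1.19 to 0.59). These intervals are Newcombe's for paired shares, and the intervals given throughout cover counting error over regions only, since 2 libraries limit the precision. They also treat regions as independent, although many lay close together, so they are likely too narrow.

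Over all 994 members, 186 held the CEBP motif (18.7%), 141 the AP-1 motif (14.2%), 106 the PU.1 motif (10.7%) and 83 the RUNX motif (8.35%). In the same windows of all consensus regions the shares were 14.3% for CEBP, 9.30% for AP-1, 6.53% for PU.1 and 7.27% for RUNX. The closest comparison is with near intergenic regions, which are outside protein-coding gene bodies and over 1 kb but at most 100 kb from a protein-coding TSS. These numbered 6392. Remote regions held the PU.1 motif more often than near intergenic regions, by 2.69 points (0.79 to 4.85, against 7.98% near), and the AP-1 motif by 2.83 points (0.64 to 5.25, against 11.4% near). The intervals of the differences included 0 for CEBP (2.16 points, -0.32 to 4.86) and RUNX (-0.63 points, -2.35 to 1.37). Near intergenic summits also exceeded their flanks, by 7.77 points for PU.1, 9.17 for CEBP, 6.21 for AP-1, 4.27 for RUNX and 2.26 for STAT. An excess over the flanks was thus not particular to remote regions. Motif differences between remote and near intergenic regions, here and below, were not recomputed under the alternative settings or in the single lists.

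The RBPJ core TGGGAA was present at 185 remote summits (18.6%), against 18.8% of all consensus summits. In the paired windows it was found at 17.4% of summits and 20.1% of flanks, a difference of -2.66 points whose interval included 0 (-6.59 to 1.27). The 9-base RBPJ motif was present at 1.31% of remote summits (13 regions, 0.77 to 2.22) and 1.14% of all consensus summits. Its difference from the flanks was 0.80 points (-0.16 to 1.90), and it cleared 0 under 4 other settings that are given in the closing section. Near intergenic summits did exceed their flanks for the core, by 2.16 points (0.53 to 3.78), and for the 9-base motif, by 0.63 points (0.20 to 1.08). The motif of CTCF, the insulator protein, was rare at 4 remote summits (0.40%), against 88 near intergenic summits (1.38%), a difference of -0.97 points (-1.37 to -0.30). The GC box GGGCGG, typical of promoters, was present at 42 remote summits (4.23%), against 6.15% near and 14.3% of all consensus summits. The motif of RXR with PPAR was found at no remote summit, which allows a share of up to 0.38% (Wilson), and at 7 near intergenic summits (0.11%). It was searched as an exact match and was present at only 0.079% of all consensus summits. Its absence from remote summits therefore does not show a lack of such sites.

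**Figure D1:**
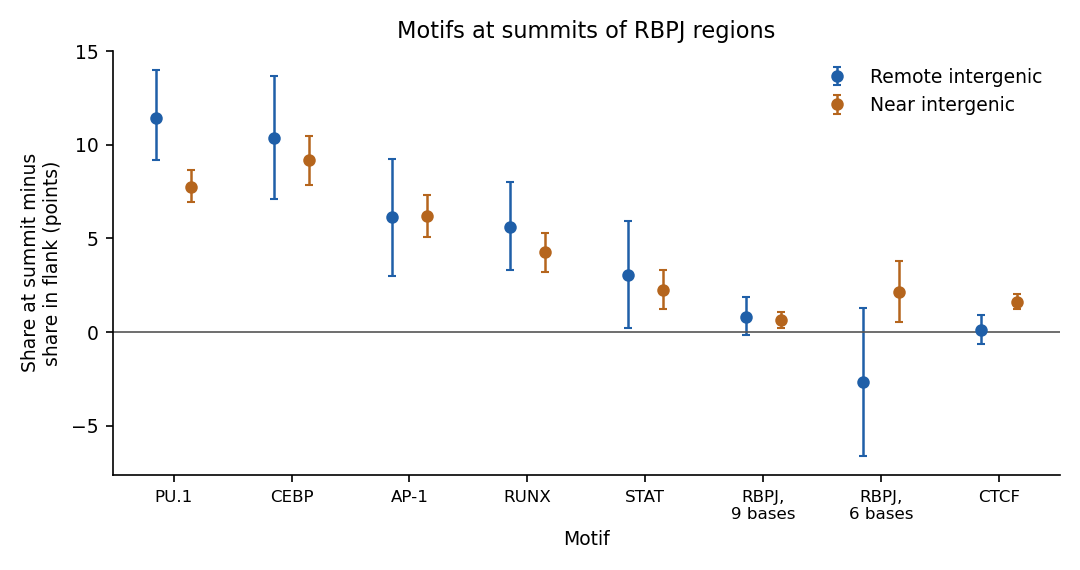
Difference between the share of summit windows and the share of paired flank windows holding a motif (vertical axis, percentage points) for 8 motifs (horizontal axis), in remote intergenic and near intergenic regions, with Newcombe 95% intervals as bars. In remote regions the PU.1 motif differed most, by 11.5 points, and the interval of the 6-base RBPJ core included 0.

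Remote sequence was sparsely occupied. It made up 32.7% of the genome outside assembly gaps (865 Mb) and held 1.15 regions per Mb (exact Poisson interval 1.08 to 1.22), against 13.7 per Mb (13.5 to 13.9) in all other sequence. The ratio of the densities was 0.0838 (0.0786 to 0.0893), and it was 0.22 in the list of replicate 2 alone, 0.0469 with a limit of 200 kb and 0.13 with one of 50 kb. Density differed between chromosomes. Chromosome 10 held 3.06 remote regions per Mb (2.54 to 3.66), chromosome 13 held 2.45 (1.98 to 2.99), chromosome 16 held 2.39 (1.89 to 2.97), chromosome 15 held 2.23 (1.76 to 2.77) and chromosome 2 held 2.03 (1.64 to 2.50). Chromosome 14 held 0.50 (0.32 to 0.76), and the X chromosome held 0.12 (7 regions, 0.05 to 0.25). The Y chromosome held none, which allows up to 0.06 per Mb. Mappability and the sex of the animals were not taken into account. Near intergenic sequence was also sparse on X, at 0.998 per Mb (0.76 to 1.29) against 7.38 on chromosome 14, the lowest autosome, and held no region on Y. Among the autosomes the order was not that of near intergenic sequence, where chromosomes 19 (20.03 per Mb) and 11 (13.4) were highest. Across the 19 autosomes the remote and the near intergenic densities had a Spearman rho of 0.22, given as a description of points that share both libraries.

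**Figure D2:**
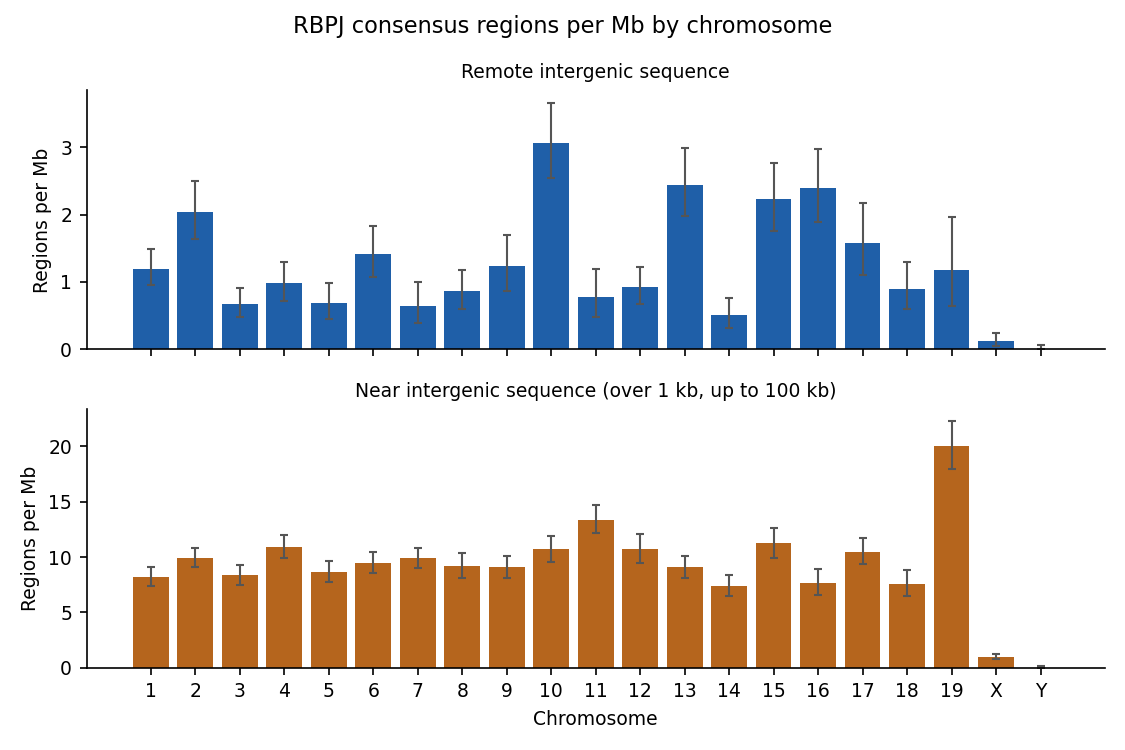
RBPJ consensus regions per Mb of sequence outside assembly gaps (vertical axes) by chromosome (horizontal axis), for remote intergenic sequence above and near intergenic sequence below, with exact Poisson 95% intervals as bars. Chromosomes 10, 13, 16, 15 and 2 had between 2.03 and 3.06 remote regions per Mb. X had 0.12 remote and 0.998 near intergenic regions per Mb.

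The single lists showed how often remote peaks recurred. Of 4659 remote peaks of replicate 1, 1062 (22.8%, 21.6 to 24.02) were also found in replicate 2, against 26% of all peaks of that list. Near intergenic peaks of the same list overlapped at 22.9%, so the difference was -0.11 points (-1.38 to 1.21). Of 4562 remote peaks of replicate 2, 1246 (27.3%, 26.04 to 28.6) were also found in replicate 1, against 66.3% of all peaks of that list. Near intergenic peaks of replicate 2 overlapped at 66.7%, a difference of -39.4 points (-40.9 to -37.8). Remote peaks were thus less recurrent than near intergenic peaks in the list of replicate 2, and no difference was detectable in that of replicate 1. Remote peaks made up 9.66% of the list of replicate 2 and 4.39% of that of replicate 1. The 3316 unshared remote peaks of replicate 2 were narrow and weak, with a median width of 118 bp and a median −log10 q of 2.43, and 265 of them (7.99%) had a −log10 q of at least 5. The shared remote peaks of replicate 2 had a median width of 247 bp and a median −log10 q of 4.53. When only peaks with a −log10 q of at least 5 were kept, the difference was -17.7 points (-21.1 to -14.4) in replicate 2 and turned to 2.23 points (0.36 to 4.18) in replicate 1.

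**Figure D3:**
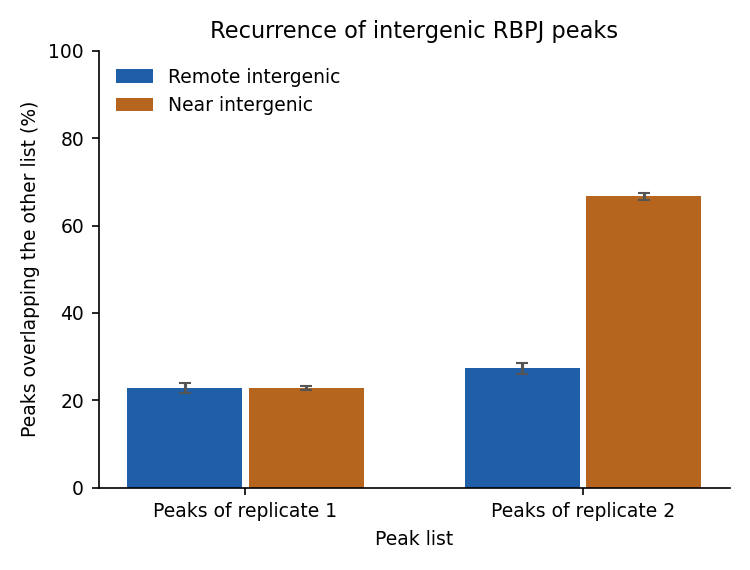
Percent of intergenic peaks that overlapped a peak of the other library (vertical axis) for the peak list of each replicate (horizontal axis), with remote intergenic peaks to the left of near intergenic peaks and Wilson 95% intervals as bars. In the list of replicate 2 the shares were 27.3% remote and 66.7% near, and in that of replicate 1 they were 22.8% and 22.9%.

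No difference in enrichment between remote and near intergenic regions was detectable in the consensus. Remote regions had a median of 6.60-fold over background in replicate 1, against 6.34-fold for near intergenic regions, and both sets had 5.02-fold in replicate 2. The lower fold of the 2 libraries had a median of 4.69 in both sets. It exceeded the consensus median in 46.5% of remote and 45.0% of near intergenic regions, a difference of 1.45 points (-1.86 to 4.79). In the single lists remote peaks exceeded the median less often than near intergenic peaks, with differences of -3.52 points in replicate 1 and -19.7 points in replicate 2. Remote regions with a −log10 q of at least 5 in both libraries numbered 502 (50.5%), against 51.2% of all consensus regions. Replicate 1 and replicate 2 folds of the remote regions correlated with a rho of 0.56 (Spearman), over 994 regions that share the 2 libraries.

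The 10 strongest members by lower fold fell into 9 loci. The first had 18.01-fold enrichment in replicate 1 and 16.4-fold in replicate 2 (chr13:107890001-107890760), and the next had 15.98-fold and 16.7-fold (chr13:107830843-107832488). Both lay at Zswim6, which the GENCODE release used here types as a processed transcript and RefSeq types as protein-coding, so they are remote under GENCODE only. The summit of the first lay 168 bp upstream of the Zswim6 start. The third strongest lay 182 kb downstream of the TSS of Trib1, a pseudokinase that directs the degradation of CEBPα, with 17.8-fold and 15.1-fold enrichment (chr15:59829765-59832521). The next lay 198 kb downstream of Dusp6, an ERK phosphatase, with 18.01-fold and 14.7-fold (chr10:99459389-99462489). A region 157 kb upstream of Nrip1, a corepressor of nuclear receptors, had 13.4-fold and 13.1-fold (chr16:76530006-76531686).

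The remaining 5 of these 10 were spread over as many chromosomes. A region between the cadherin genes Cdh10 and Cdh12, nearest to Acot10 at 809 kb, had 15.5-fold enrichment in replicate 1 and 12.9-fold in replicate 2 (chr15:19856615-19858777). A region 156 kb upstream of Klf14 had 19.03-fold and 12.55-fold and was the second widest member at 5735 bp (chr6:31111714-31117448). A region 212 kb from Rplp1 had 12.2-fold and 12.9-fold (chr9:61701873-61702903), and one 197 kb from Gm5426 had 16.7-fold and 11.7-fold (chr10:96331202-96335067). The last, on chromosome 8 (chr8:20122142-20122400), had 12.2-fold and 17.4-fold but was only 259 bp wide, and 71.8% of the 32-base words under its summit occurred elsewhere in the genome.

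Members with the highest −log10 q were partly of another kind. Apart from the regions already named, the top 10 by lower −log10 q held a region 263 kb upstream of Mc2r (8.30-fold in replicate 1, 14.9-fold in replicate 2, −log10 q 107 and 221) that was 276 bp wide. They also held a region 110 kb from Gm8797 on chromosome 3 (6.07-fold and 15.4-fold, −log10 q 90.5 and 273) that was 492 bp wide, and a region of 215 bp 198 kb from Samd9l (4.96-fold and 14.2-fold, −log10 q 56.7 and 134). The widest member of all, 5881 bp 105 kb from Esp38 on chromosome 17, overlapped the annotated ribosomal RNA gene CT010467.1 and had 3.43-fold and 4.95-fold enrichment with a −log10 q of 65.96 and 145. All 4 had a lower fold in replicate 1 than in replicate 2. All of the 32-base words under the Gm8797 summit and 65.3% of those under the Mc2r summit occurred elsewhere in the genome. The tenth, 115 kb upstream of the cyclin gene Ccnd2, had 11.3-fold and 13.4-fold. No region was removed for these properties, and their part in the enrichment was not tested.

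Repeated sequence was otherwise scarce under remote summits. In 17 members (1.71%, 1.07 to 2.72) over 50% of the 32-base words of the summit window had an exact copy elsewhere, against 1.60% of near intergenic regions. No word had a copy in 86.9% of remote and 80.3% of near intergenic windows, a difference of 6.65 points (4.21 to 8.84). The 17 copied members had a median width of 276 bp, against 666 bp for the other 977. Soft-masked bases, which mark interspersed and simple repeats in the reference, made up on average 14.8% of remote summit windows (SE 0.60, n = 994) and 18.9% of near intergenic ones (SE 0.28, n = 6392). The difference of -4.07 points (-5.36 to -2.78) held in the list of replicate 1 alone and turned to 1.27 points in that of replicate 2 alone. Windows 1000 bp from the summits averaged more in both sets, with 23.2% for remote and 29.3% for near intergenic regions. The authors filtered alignments by quality, and the effect of this filter on copied sequence was not tested.

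**Figure D4:**
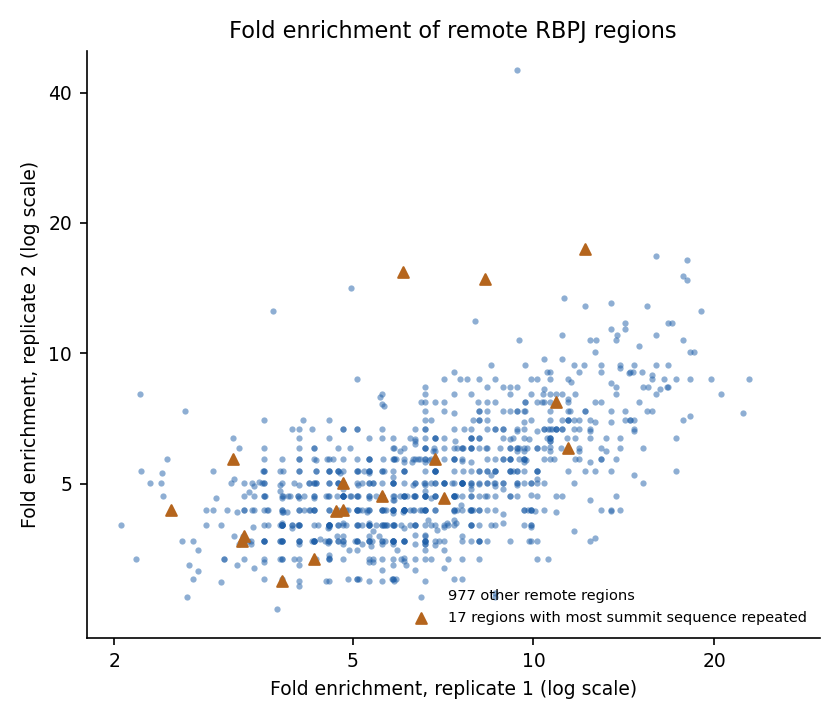
Fold enrichment over background in replicate 1 (horizontal axis) and replicate 2 (vertical axis), both on log scales, with 1 point per remote region. Triangles mark the 17 regions in which over 50% of the 32-base words under the summit occur elsewhere in the genome, of which 3 lie between 14.9-fold and 17.4-fold in replicate 2.

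Remote regions came in groups. Neighboring members were joined where the gap between them was short (the longest gap joined was 12474 bp and the shortest not joined 12510 bp). This gave 317 single members (31.9%), 104 pairs and 112 clusters of 3 or more that together held 469 members (47.2%). The largest cluster had 13 members in 39.9 kb on chromosome 2 (chr2:128412070-128451992) between Bcl2l11, which encodes the proapoptotic protein BIM, and Spdye4c. The densest of the 8 largest had 12 members in 15.4 kb on chromosome 6 (chr6:31206548-31221967) between Klf14 and Mkln1, where members covered 75.9% of the sequence. The next largest were 10 members in 22.9 kb near Nrip1, 9 in 20.6 kb near Tomm20, 9 in 37.4 kb between Lpp and Tprg, 8 in 19.1 kb near Klf14, 8 in 59.5 kb near Trib1 and 8 in 35.8 kb near Gm5426. Fold varied widely within a cluster, as in the Nrip1 cluster, where it ranged between 2.41 and 13.4 in replicate 1 and between 3.01 and 13.1 in replicate 2.

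Clustered members differed from single ones in width and motif. Members of clusters of 3 or more had a median width of 760 bp (686 to 810), against 570 bp (520 to 634) for single members, and 13.7 points more of them exceeded the consensus median width (6.57 to 20.6). They reached a −log10 q of at least 5 in both libraries more often, at 52.5% against 44.8% (7.66 points, 0.53 to 14.7). They held the PU.1 motif less often, at 8.10% against 14.8%, a difference of -6.72 points (-11.6 to -2.24). For CEBP and AP-1 the intervals of the difference included 0 (-4.72 points, -10.4 to 0.78, and -4.56 points, -9.86 to 0.47). Measured against the nearest consensus region of any kind, remote regions had a close neighbor less often than near intergenic ones. A neighbor within 10 kb was found for 66.2% of remote and 78.7% of near intergenic regions (-12.49 points, -15.7 to -9.45), and no neighbor within 50 kb for 16.9% against 5.46% (11.4 points, 9.16 to 13.95). In the list of replicate 2 alone the 10-kb difference was -41.9 points. Remote sequence held fewer regions per Mb (1.15, against 13.7 in all other sequence). This lower density was not taken into account, so these differences do not show how strongly regions grouped.

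Gene-free intervals, the stretches between neighboring protein-coding gene bodies, were occupied unevenly. Of 2094 intervals with remote sequence, 291 (13.9%) held a member, and 138 of these held 1. The 57 intervals with 5 or more members held 600 members (60.4%), and the 8 with the most held 174 (17.5%). The fullest was the 429-kb interval between Bcl2l11 and Spdye4c with 31 members, whose fold ranged between 2.76 and 14.7 in replicate 1 and between 3.14 and 9.37 in replicate 2. The 440-kb interval between Klf14 and Mkln1, which encodes muskelin, held 29 members with folds of 2.40 to 19.03 and 3.35 to 12.55 in the same order of replicates. The 480-kb interval between Gm5426 and Btg1, a gene of an antiproliferative protein, held 21 members, with 16.7-fold and 11.7-fold at its strongest. All 31 members of the first interval and 26 of the 29 in the next overlapped lncRNA bodies.

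The other 5 of these 8 intervals held 17 to 21 members each. The 539-kb interval between Prdm1, which encodes the transcriptional repressor BLIMP1, and Prep held 21 members, of which 19 were nearest to Prdm1 and lay 107 to 243 kb upstream of it. The strongest of them had 8.63-fold enrichment in replicate 1 and 8.70-fold in replicate 2 (chr10:44631603-44633611). The 337-kb interval between Irf2bp2, a corepressor that acts with IRF2, and Tomm20 held 19 members and reached 18.5-fold and 10.04-fold (chr8:126831437-126835124). The 358-kb interval beside Trib1 held 18, as did the 359-kb interval between Ly86, whose product MD-1 pairs with the receptor RP105, and Rreb1, where the strongest had 11.2-fold and 11.0-fold. The 1056-kb interval between Ptger4, a prostaglandin E2 receptor gene, and Dab2, an endocytic adaptor gene, held 17, and its strongest had 15.98-fold and 11.0-fold at 252 kb from Ptger4 (chr15:5494715-5496790). None of the members beside Trib1 or between Ptger4 and Dab2 overlapped a lncRNA body.

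**Figure D5:**
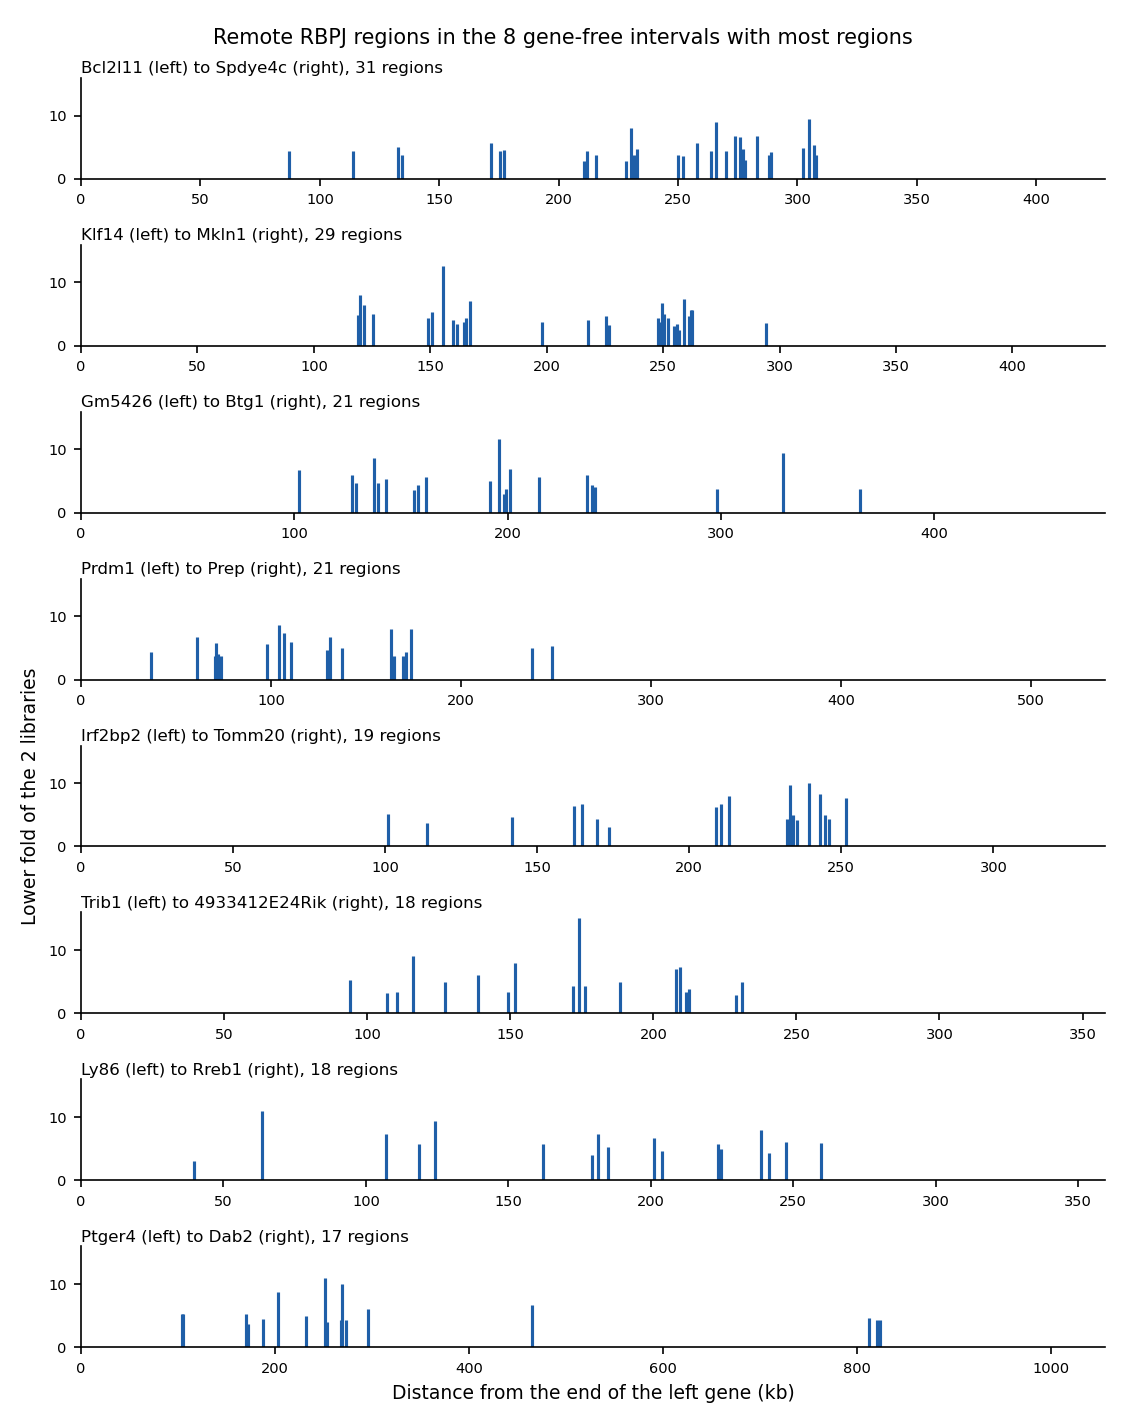
Remote RBPJ regions (vertical lines) along the 8 gene-free intervals with the most regions, by distance in kb from the end of the left flanking gene (horizontal axes, which span each whole interval) and by the lower fold enrichment of the 2 libraries (vertical axes, 0 to 16). The interval between Bcl2l11 and Spdye4c holds 31 regions, and the highest line, at 15.1-fold, lies beside Trib1.

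Named groups of genes were then counted among the nearest genes. In all, 330 of 21911 protein-coding genes (1.51%) were nearest to a remote region. Of 71 macrophage transcription factors, 13 were (18.3%), with 69 members between them, and the strongest at each of 4 of these is given here. Zeb2, a repressor needed for macrophage identity, was nearest to 9 members 119 to 1325 kb away, and the strongest lay 161 kb upstream with 12.7-fold enrichment in replicate 1 and 10.7-fold in replicate 2 (chr2:45275977-45280109). Klf6 was nearest to 3 members, the strongest 349 kb upstream with 11.9-fold and 9.04-fold. Maf, which restrains macrophage self-renewal, had 1 at 284 kb downstream with 12.9-fold and 7.70-fold, and Mef2c had 2, the stronger at 429 kb upstream with 8.12-fold and 7.36-fold. Nearness does not show which gene a region serves, and the length of the gene-free sequence around these genes was not taken into account. The gene lists were chosen with earlier results of these data known, so the shares here and below are descriptions only.

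Notch targets and Notch pathway genes were counted in the same way. Of 23 Notch targets, 4 were nearest to a member (17.4%). Myc was nearest to 12 members, all 165 to 466 kb away, and the strongest had 10.4-fold enrichment in replicate 1 and 9.71-fold in replicate 2 (chr15:62151781-62153243). Id2, an inhibitor of basic helix-loop-helix factors, was nearest to 14 members, the strongest 281 kb upstream with 10.7-fold and 6.08-fold. It is also on the list of macrophage transcription factors, so these 14 members count in both lists. Hes1, the archetypal Notch-induced repressor, was nearest to 3 members, the strongest 120 kb upstream with 6.60-fold and 5.69-fold. Gata3 had 1, at 128 kb, with 14.97-fold and 7.70-fold. Of 43 Notch pathway genes, 3 were nearest to a member (6.98%). These were the Groucho corepressor genes Tle1, with 3 members of at most 6.09-fold and 5.36-fold, and Tle3, with 2 of at most 10.1-fold and 5.01-fold, and Rbpj itself. The stronger Rbpj region lay 140 kb upstream, with 5.41-fold and 3.88-fold. No receptor or ligand gene of the Notch pathway was among them.

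In the other lists 1 to 6 genes each were nearest to a member. Of 37 AM identity genes, Kcnip4 alone was nearest to a member, with 8.63-fold and 4.69-fold at its strongest. Of 36 niche signaling genes, Inhba and Tgfbr2, the TGFβ receptor gene, had 2 members each, with 9.64-fold and 5.61-fold and with 8.12-fold and 3.35-fold at their strongest. Igf1, a growth factor gene, was the only 1 of 43 cytokine and chemokine genes, with 9.39-fold and 4.69-fold at 105 kb. Of 22 genes of monocytes and neutrophils, Cxcr4, the receptor for CXCL12, was nearest to 5 members 113 to 132 kb away, the strongest with 13.4-fold and 11.4-fold, and Fn1 to 2. Of 89 developmental transcription factors in the annotation, 6 were nearest to a member (6.74%), with 27 members between them, led by Prdm1 with 19 and Tshz1 with 3. Among markers of other cell types, 1 of 23 lymphocyte genes (Gata3), 1 of 22 genes of type II and endothelial cells (Cdh5) and 1 of 37 neuronal genes (Cdh10) were nearest to a member. Counts of genes flanking a member differed. They were 5 neuronal genes (13.5%), 11 developmental factors (12.4%) and 17 macrophage factors (23.9%), against 2.54% of all protein-coding genes. The flanking shares were 4.35% for lymphocyte genes, 4.55% for type II and endothelial genes and 2.70% for AM identity genes. Over all members, 554 (55.7%, 52.6 to 58.8) lay upstream of the nearest TSS. The matching share of remote sequence or of near intergenic regions was not computed, so this does not show a preference for either side.

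Noncoding genes were near many remote regions. The body of a lncRNA gene was overlapped by 310 members (31.2%, 28.4 to 34.1), against 16.4% of near intergenic regions, a difference of 14.8 points (11.9 to 17.9), which was 5.03 points (0.84 to 9.78) with a limit of 200 kb. By midpoint, 29.1% of members lay in lncRNA bodies, which made up 9.15% of remote sequence. Remote sequence within lncRNA bodies thus held 3.65 regions per Mb, against 0.90 per Mb outside them, a ratio of 4.07 (3.54 to 4.67). In near intergenic sequence the corresponding ratio was 1.54 (1.44 to 1.65). These intervals count each region as independent, although 47.2% of members lay in clusters of 3 or more. The lncRNA genes Gm14005 and Lncpint alone held 31 and 23 members, so the intervals are likely too narrow. The difference in overlap was 12.0 points in the list of replicate 1 alone and 1.17 points, with an interval that included 0, in that of replicate 2 alone. Starts of lncRNA genes showed no such difference. A lncRNA TSS within 1 kb was found for 70 remote regions (7.04%), against 7.18% of near intergenic regions (-0.14 points, -1.71 to 1.72). In total 655 members (65.9%) overlapped no gene of any type in the GENCODE release used. The share was 78.7% in near intergenic regions, so remote regions overlapped an annotated gene more often (-12.8 points, -16.0 to -9.79, for no gene).

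The overlapped lncRNA genes numbered 132, of which 36 held 3 or more members. Gm14005, which spans 324 kb between Bcl2l11 and Spdye4c (chr2:128178319-128502765), held 31 members, and Lncpint, a p53-responsive lncRNA gene of 138 kb beside Klf14 (chr6:31082565-31220488), held 23. Gm35154 near Prdm1 held 12, Gm31718 near Tomm20 held 9, A830008E24Rik 8 and Pvt1, the lncRNA gene beside Myc, 6. Trerf1 with 10 members and Zswim6 with 8, both typed as processed transcripts, are protein-coding in RefSeq. Without the 2 fullest bodies, the difference in overlap from near intergenic regions was 10.9 points (8.01 to 13.97), an alternative chosen after seeing the data. Other noncoding classes were rarely met. Pseudogenes were overlapped by 26 members (2.62%, against 1.25% near, 1.36 points, 0.49 to 2.58), a miRNA gene by 1, a snoRNA gene by 1 and a snRNA gene by none.

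Members at lncRNA starts included some of the strongest. The Dusp6 member (18.01-fold in replicate 1, 14.7-fold in replicate 2) covered the starts of Gm34983 and Gm35035, which are transcribed in opposite directions, with its summit 69 bp inside the start of Gm35035 and 199 bp downstream of the nearest annotated TSS of Gm34983. Near Ly86, a member with 11.2-fold and 11.0-fold lay at the start of Gm47732 and another with 13.95-fold and 9.37-fold at that of Gm30918. A member with 11.7-fold and 9.37-fold lay at Gm37800 near Hlx, and a second there had 22.8-fold and 8.70-fold. The summit of a Gm14005 member lay 21 bp upstream of a TSS of that gene, with 12.9-fold and 9.04-fold. In the Zeb2 interval, the small RNA gene Vis1 started within 1 kb of the strongest member, and Gm13470 started at a member 1325 kb from Zeb2 with 10.1-fold and 8.70-fold. All of these are starts of annotated noncoding genes, and no transcript was measured here.

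Median fold varied little with distance from the nearest TSS, while the share of members in lncRNA bodies and with close neighbors was lower beyond 200 kb than at 150 to 200 kb. Members 100 to 150 kb from the nearest TSS numbered 363, with a median width of 666 bp and a median lower fold of 4.69. Those at 150 to 200 kb numbered 277 (700 bp, 4.69) and those at 200 to 500 kb 320 (631.5 bp, 4.69). There were 25 at 500 to 1000 kb (705 bp, 4.15) and 9 beyond (383 bp, 5.02). The share in a lncRNA body was 30.9%, 41.9%, 25%, 4% and 11.1% in this order of distance. The share with a neighbor within 10 kb was 65.8%, 73.6%, 62.5%, 52% and 22.2%. On either side of the 100-kb limit, the 91 regions at 100 to 110 kb had a median width of 733 bp and a median lower fold of 4.69, and the 131 intergenic regions at 90 to 100 kb had 558 bp and 4.82.

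The 5 members farthest from any protein-coding TSS lay in gene deserts. The farthest, 2129.5 kb from Cntnap5b on chromosome 1, had 4.82-fold enrichment in replicate 1 and 5.02-fold in replicate 2 and was 335 bp wide, and 51.8% of the 32-base words under its summit occurred elsewhere. The next, 2027.5 kb from Slc39a10, had 2.62-fold and 7.36-fold and was 133 bp wide. A region of 2000 bp 1614 kb upstream of Sel1l on chromosome 12 had 9.39-fold and 45.2-fold, the largest ratio between the libraries of any member. The other 2 lay 1325 and 1254 kb upstream of Zeb2 (chr2:46441357-46444253 and chr2:46370272-46371804), with 10.1-fold and 8.70-fold and with 10.7-fold and 8.70-fold. These 2 were alike in both libraries, unlike the Slc39a10 and Sel1l regions.

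Width differed in direction between the consensus and the single lists. The median width was 659 bp (617 to 712) in remote regions, 611 bp (596 to 629) in near intergenic regions and 591 bp in all regions that were not remote. Remote regions exceeded the consensus median of 593 bp more often than near intergenic ones, at 55.3% against 51.4% (3.94 points, 0.60 to 7.24). In the single lists the direction was the opposite, with -1.96 points in replicate 1 and -21.5 points in replicate 2. Members ranged between 118 and 5881 bp. Besides the 2 widest named above, the widest were a region of 5187 bp 165 kb upstream of Ado (12.4-fold in replicate 1, 6.60-fold in replicate 2), one of 4140 bp 142 kb from Zfp608 (15.7-fold and 8.70-fold) and the Zeb2 region of 4133 bp shown at the start.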

How the data were processed

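HT-ChIPmentation data of 4 libraries were used (2 RBPJ, 2 input). Per the methods and the submitters' processing notes, the authors used CASAVA and bcl2fastq (version 2.20.0.422) for demultiplexing, trimmed reads with cutadapt, aligned them to mm10 with Bowtie2, filtered them with SAMtools and called peaks in each library with MACS3 against input at q 0.05. The deposited lists hold a fold enrichment over background at the summit, a −log10 p and −log10 q, and a display score that was not used here. Fold and −log10 q were taken as the authors' values. Read depth was not used here.

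Overlap meant at least 1 bp. The fold and q of a region were the highest of its peaks in each library, and its summit was that of the library with the higher fold. Gene bodies and TSSs came from GENCODE vM21 (basic transcripts for protein-coding genes, comprehensive for noncoding ones), and sequence from soft-masked GRCm38. Motifs (18) were searched in summit windows of 100 bp either side, on both strands. The CTCF, IRF and RXR with PPAR motifs were 10 bases or longer, and no motif match was removed for overlapping another. Intervals are at 95% (Wilson, Newcombe, order statistic for medians, exact Poisson), with normal intervals for the mean soft-masked share. No p-values were computed. Functions were tested on simulated data. Scripts used Python 3.11.15, SciPy 1.17.1, numpy 2.4.6, matplotlib 3.10.9 and pandas 2.3.3. Alternatives varied the distance limit, q threshold, position rule, transcripts, overlap rule, neighbor distance, motif window and library, and RefSeq models and the exclusion of 2 lncRNA bodies were added after seeing the data. Members named were the 10 highest by lower fold and by lower −log10 q, the 5 widest, the 5 farthest, the 8 largest clusters and fullest intervals, list genes nearest to a member (4 at most), and the 8 strongest with a noncoding start within 1 kb. Sequences and a few further members beside these were chosen after their values were seen. Members and gene lists were chosen with earlier results of these data known. 1 listed developmental gene had no match in the annotation.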

Additional observations from a re-analysis of the deposited data

How the results depend on the processing

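Of 135 values under alternative settings for 15 results, 104 kept both their direction and whether the interval included 0. For density the reference was 1, and the count had to stay within 1.5 times. In 8 values the interval came to include the reference, and in 7 it came to exclude it. The direction turned in 10 values, and the count moved further in 6. The number of remote regions was 2102 at a limit of 50 kb, 354 at 200 kb, 502 at a −log10 q of at least 5 in both libraries, 562 with summits within 100 bp, and 951 with RefSeq gene models; 4562 to 4659 peaks were remote in the single lists. RefSeq placed 23 of the 994 members inside a protein-coding gene, among them Trerf1, Zswim6 and Ppargc1a, and 72 others within 100 kb of a TSS.

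The width difference was 1.02 points at the stricter q, 1.84 at 200 kb and 3.27 with the summit rule, all with intervals that included 0, and -21.5 to -1.96 points in the single lists. The fold difference was -0.024 points at 200 kb, 3.16 at 50 kb (interval above 0) and -19.7 to -3.52 in the single lists. The density ratio was 0.0469 at 200 kb and 0.13 at 50 kb, and 0.0946 to 0.22 in the single lists. The lncRNA difference was 0.41 points for starts within 5 kb, 5.03 at 200 kb, 1.17 to 12.0 in the single lists and 10.9 points without Gm14005 and Lncpint. The soft-masked difference was -1.50 points at 200 kb (interval included 0) and -5.05 to 1.27 in the single lists. The recurrence difference in the list of replicate 1 was 2.23 points both at the stricter q and at 50 kb, and -4.22 at 200 kb, each with an interval that excluded 0. In the list of replicate 2 it was -17.7 points at the stricter q.

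For the AP-1 motif, summit minus flank was 3.92 points with the summit rule (interval included 0) and 1.08 to 3.05 in the single lists. For the RBPJ core it was 0.12 with windows of 50 bp either side, 0.45 at 50 kb and -2.71 to -1.01 in the single lists. For the 9-base RBPJ motif it was 1.48 at the stricter q, 0.89 at 50 kb, 1.11 with RefSeq models and 1.61 with the summit rule, all with intervals above 0. In the single lists the PU.1 difference was 2.02 to 4.33 points, against 11.5 in the consensus. The cause of these changes was not tested. No paired analysis was possible because the inputs have no peak list of their own, so no comparison between groups that share replicate numbers was made.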
